A study of Mus musculus with 6 samples.

Results

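The collagen genes were examined in RNA sequencing of pancreatic islets, which are hormone-secreting cell clusters, of wild-type mice (WT) and of transgenic mice (TG), in which a transgene specific to beta cells encodes the microRNA miR-203. The genes were chosen as every protein-coding gene of the deposited annotation whose symbol is Col, a number, a and a number. This gave 44 of the 47643 genes counted, and 32 of them had enough reads to be tested. According to the labels, all mice of both genotypes were 10 weeks old, male and fasted for 12 h. The promoter behind the transgene is not named in the labels, and neither is the origin of each library from a separate animal, so the p-values only measure how far these libraries spread, which may be technical. There were 3 WT and 3 TG libraries. WT 1, WT 2, TG 1 and TG 2 came in a first pair of deposited tables, and WT 3 and TG 3 in a second, so the table was a term of the genotype comparison.

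Collagens are secreted proteins whose chains wind into a rope-like helix and form the scaffold of connective tissue. Fibrillar collagens build the tensile fibers of the tissue between cells, whereas type IV collagen builds the meshwork of basement membranes, the thin sheets beneath epithelia and around blood vessels. The remaining classes decorate fibrils, form beaded filaments or short-chain networks, or span the cell membrane. In the mouse islet, basement membrane lies mainly along the blood vessels and at the islet edge, and endothelial cells, pericytes and fibroblast-like stellate cells are the usual collagen makers. In bulk islet RNA, fewer cells of a type and less RNA per cell cannot be told apart.

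The libraries held 20176456 to 27482339 counts. Mir203 was counted 170, 164 and 150 times across TG 1 to TG 3, never in WT 2 and WT 3, but 39 times in the library labelled WT 1, so results are also given without it. Xist, the transcript of the inactive X chromosome, had 25145 counts in WT 3 and 27240 in TG 3 against 4 to 13 in each library of the first table, which goes against their male label, and results are also given for the first table alone. Endothelial markers summed to between 412 and 719 CPM (read counts scaled to library size by the TMM method) in WT and between 454 and 822 CPM in TG, and the beta-cell markers to between 95509 and 194509 CPM in WT and between 30992 and 168276 CPM in TG. Acinar markers summed to between 2906 and 6487 CPM in the first table, but to 109 CPM in WT 3 and 258 CPM in TG 3. The deposited annotation named 3 of the 4 fat markers and every gene of the other marker lists. None of the markers it named was at 0 counts in all 6 libraries.

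Type IV collagen and Col6a6 were the leading collagen transcripts of these islets. The share of all counts that fell on collagen genes was 0.0300%, 0.0391% and 0.0587% across WT 1 to WT 3, against 0.0585%, 0.0281% and 0.113% across TG 1 to TG 3. The 95% Wilson intervals ran from 0.0275% to 0.0288% in TG 2, the lowest library, and from 0.111% to 0.114% in TG 3, the highest, and such intervals cover counting error only. Levels of different genes were compared per length, as CPM per kilobase of the deposited gene length. On that scale the highest mean levels over the 6 libraries were those of Col4a1 at 14.6, Col4a2 at 13.3, Col6a6 at 10.9, Col13a1 at 5.60 and Col18a1 at 3.62 CPM per kb. The 6 type IV genes made up 46.0%, 46.7% and 37.3% of the summed collagen level per kb across WT 1 to WT 3, against 35.9%, 43.4% and 35.7% across TG 1 to TG 3. The 11 fibrillar genes made up 5.86%, 4.71% and 15.9% across WT 1 to WT 3, against 26.3%, 8.60% and 18.8% across TG 1 to TG 3. The fibrillar share was low in WT 1, WT 2 and TG 2 and high in the other libraries, and the genotypes overlapped.

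**Figure D1:**
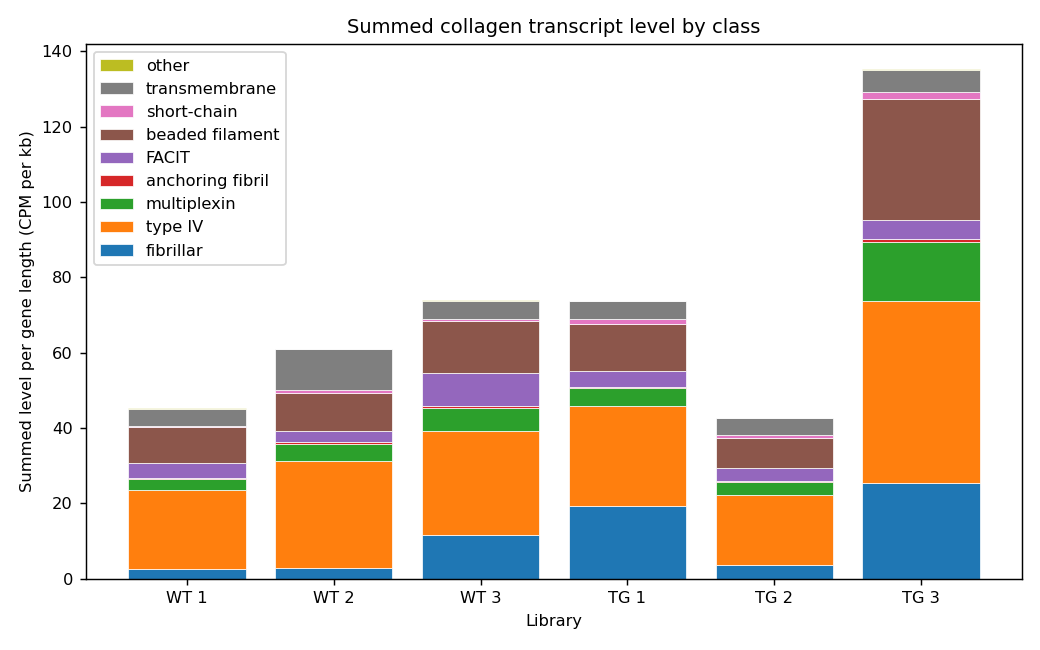
Summed collagen level of each library by class, as CPM per kilobase of gene length (stacked bars from 0, 1 bar for each WT and TG library). Type IV is the largest segment in all 6 bars, and the fibrillar segment is smallest in WT 1, WT 2 and TG 2.

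Most tested collagen genes had a higher fitted level in TG than in WT, but none passed the threshold of a Benjamini-Hochberg adjusted p under 0.05 in edgeR's quasi-likelihood test. Of the 32 tested genes 26 were higher and 6 lower, where 48.1% of all 16072 tested genes were higher. The median log2 fold change of TG over WT was 0.59, against -0.01 over all tested genes. Without WT 1 the median was 0.50, in the first table alone 0.56, without TG 2 0.84 and without TG 1 0.12. At an unadjusted p under 0.05, 10 collagen genes were higher (background 9.32% of all genes) and 0 lower (background 4.81%). They were Col1a1, Col5a2, Col5a3, Col11a2, Col4a5, Col15a1, Col28a1, Col8a1, Col8a2 and Col25a1, which fall in 6 classes. That count was 4 without WT 1, where 1340 of 16906 genes were higher at such a p and 400 lower. It was 4 in the first table alone, where 688 of 16312 genes were higher and 182 lower. Without TG 2 it was 18, of which 1 was lower, where 2823 of 16560 genes were higher and 2205 lower. By adjusted p, limma-voom called 0 collagen genes and 0 genes in all, of which 13.9% had an unadjusted p under 0.05. DESeq2 called 4 as higher (background 3.83%) and 0 as lower (background 0.846%), namely Col11a2, Col25a1, Col15a1 and Col5a3. edgeR without TG 2 called 8 as higher (background 8.82%) and 0 as lower (background 4.4%). edgeR without the low-count filter called 11 of the 44 collagens as higher (background 4.37% of 29725 genes) and 0 as lower (background 1.25%). Its bias-adjusted form, also without that filter, called 0 collagens and 0 genes in all. At an unadjusted p under 0.05 it gave 11 of the 32 that passed the filter as higher and 1 as lower. The shares over all 29725 genes, which include those that failed the filter, were 6.85% and 3.27%, so these counts and shares cover unlike sets. Other cells' markers also differed between the genotypes. Duct markers summed to 1043, 768 and 686 CPM across WT 1 to WT 3, against 1947, 1485 and 1527 CPM across TG 1 to TG 3. Markers of delta and PP cells summed to between 6547 and 6960 CPM in WT and between 10395 and 24532 CPM in TG. Mesothelial markers, of which 1 of 4 was tested, ran the other way. They summed to 54.0, 51.6 and 76.0 CPM across WT 1 to WT 3, against 14.3, 41.9 and 31.5 CPM across TG 1 to TG 3. The sums of these lists did not overlap between the genotypes, and their part in the collagen values was not tested. The sums of the stellate and fibroblast, endothelial, Schwann, acinar, macrophage, fat, beta-cell and alpha-cell lists did overlap. Of all single genes tested, 6.96% had every TG library above every WT library and 6.42% had every TG library below.

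**Figure D2:**
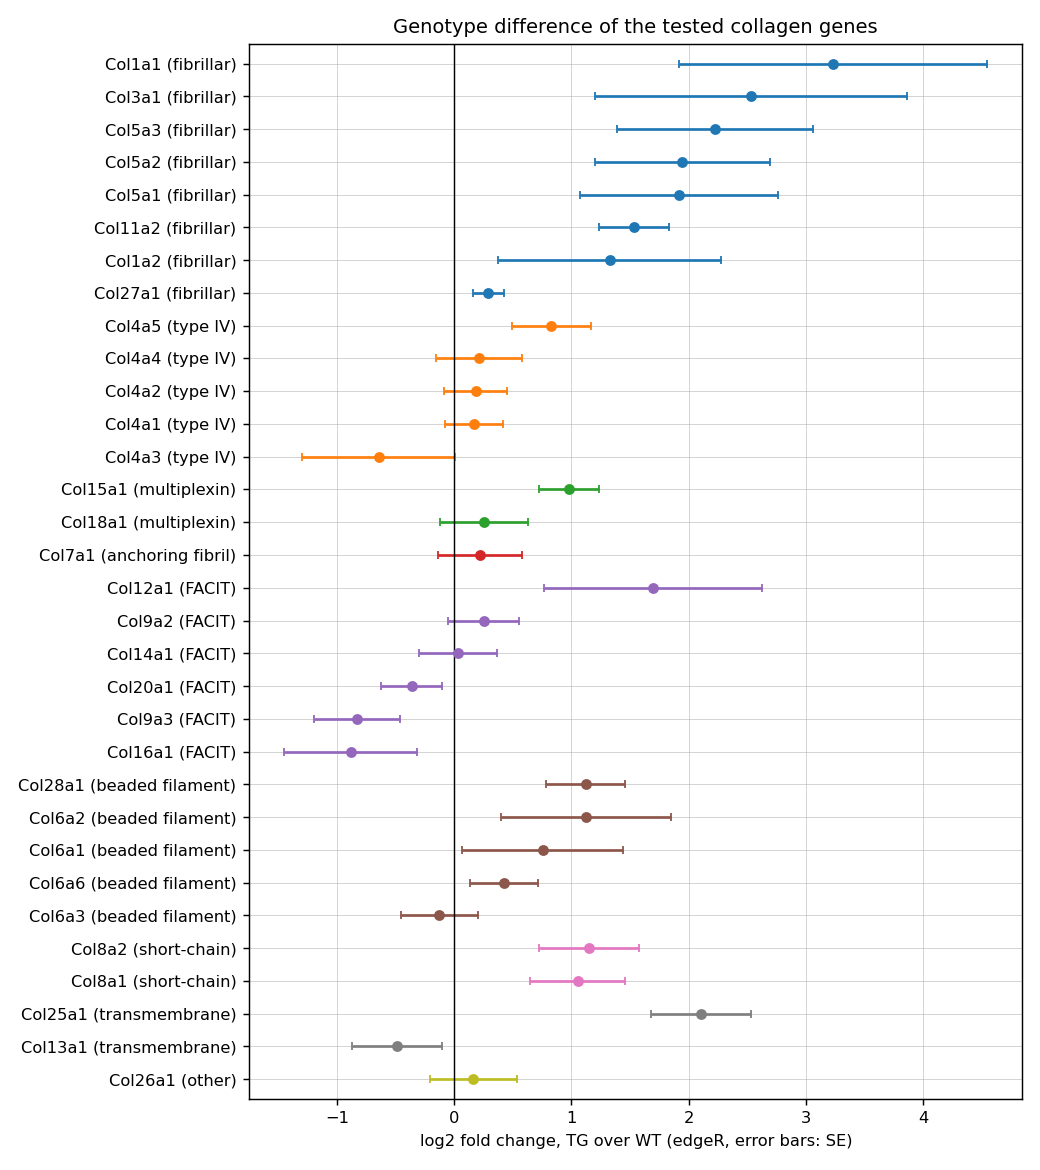
Log2 fold change of TG over WT for the 32 tested collagen genes (points) with its standard error (bars), from edgeR, colored by class. All 8 fibrillar genes lie right of 0, while Col4a1, Col4a2 and Col18a1 lie within 1 standard error of 0.

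The fibrillar collagens had the largest class median. All 8 tested fibrillar genes were higher in TG, with a median log2 fold change of 1.93, but the libraries within a genotype differed widely. Without WT 1 the median was 1.67, in the first table alone 2.28 and without TG 1 0.59, with 7 of 8 genes higher. The 11 fibrillar genes together summed to 25.3, 28.4 and 109.6 CPM across WT 1 to WT 3, against 168, 33.9 and 209.9 CPM across TG 1 to TG 3. WT 3, TG 1 and TG 3 were high, WT 1, WT 2 and TG 2 were low, and the genotypes overlapped. In the same libraries the 12 stellate and fibroblast markers, none of them a collagen, summed to 28.0, 65.9 and 46.1 CPM across WT 1 to WT 3, against 82.3, 31.2 and 99.3 CPM across TG 1 to TG 3. Among WT libraries this sum was highest in WT 2, and the fibrillar sum in WT 3. Of the 10 markers tested 8 were higher in TG (background 48.1%), 4 of them at an unadjusted p under 0.05 (background 9.32%), and 2 lower. The part of these cells in the fibrillar values was not tested.

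Type I collagen, the main fibril of fibrous tissue, is made of Col1a1 and Col1a2 chains. Col1a1 (chr11:94936224-94953042) was at 0.270, 1.099 and 14.2 CPM across WT 1 to WT 3, against 30.6, 0.912 and 35.3 CPM across TG 1 to TG 3, giving means ± SD (n = 3) of 5.18 ± 7.79 CPM for WT and 22.3 ± 18.6 CPM for TG. TG 2 lay among the low WT libraries, and the WT libraries alone spanned 52.6-fold, from 5 counts in WT 1 to 324 in WT 3. The log2 fold change was 3.23 (SE 1.32), with an adjusted p in edgeR of 0.342, which was 0.0444 without TG 2 and ran over all alternatives from 1.38e-26 without the low-count filter to 0.924 without WT 3. Without TG 1 the log2 fold change of Col1a1 was 0.91. Col1a2 (chr6:4504814-4541544) was at 1.67, 2.64 and 13.0 CPM across WT 1 to WT 3, against 17.3, 1.15 and 11.6 CPM across TG 1 to TG 3. TG 3 was below WT 3, TG 2 was below every WT library, and the log2 fold change of 1.32 (SE 0.95) turned to -0.53 without TG 1. The ratio of Col1a1 to Col1a2 counts per length was 0.305, 0.789 and 2.07 across WT 1 to WT 3, against 3.34, 1.502 and 5.73 across TG 1 to TG 3. It was below 1 only in WT 1 and WT 2, and TG 2 fell below WT 3. Its size rests on the deposited lengths, 6563 bases for Col1a1 and 12426 for Col1a2. Whether these match the transcripts of these islets was not measured. The WT 1 ratio rests on 5 counts of Col1a1 and 31 of Col1a2. Col3a1, whose type III collagen joins type I in fibrils, was at 0.863, 2.46 and 17.9 CPM across WT 1 to WT 3, against 43.0, 1.47 and 21.2 CPM across TG 1 to TG 3. TG 1 was the highest library, TG 2 lay between WT 1 and WT 2, and the log2 fold change was 2.53 (SE 1.33), with an adjusted p in edgeR of 0.434. Without TG 1, Col3a1 was at 0.03 on this scale.

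The type V chains, which join type I fibrils and limit their width, were likewise highest in TG 1 and TG 3 and low in TG 2. Col5a2 (chr1:45374321-45503282) was at 1.78, 4.39 and 8.0 CPM across WT 1 to WT 3, against 27.3, 3.49 and 19.2 CPM across TG 1 to TG 3, with a log2 fold change of 1.95 (SE 0.75). Col5a3 (chr9:20770050-20815067) was at 1.02, 1.19 and 4.07 CPM across WT 1 to WT 3, against 11.8, 0.832 and 13.4 CPM across TG 1 to TG 3, with a log2 fold change of 2.22 (SE 0.84). For both genes TG 1 and TG 3 exceeded every WT library and TG 2 was below WT 2. Their adjusted p in edgeR was 0.317 and 0.310, and DESeq2 gave 0.0487 for Col5a3. Without TG 1 the log2 fold change was 0.67 for Col5a2 and 0.70 for Col5a3. For Col5a3 the alternatives ranged from 1.18e-09 without the low-count filter to 0.945 in the first table alone. Col5a1, with a mean under 5 CPM and an unadjusted p of 0.0586, had a log2 fold change of 1.92 (SE 0.85) and an edgeR adjusted p of 0.368. The ratio of Col5a1 to Col5a2 counts per length lay between 0.308 and 0.648 in WT and between 0.244 and 0.690 in TG, so the WT range lay inside the TG range.

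**Figure D3:**
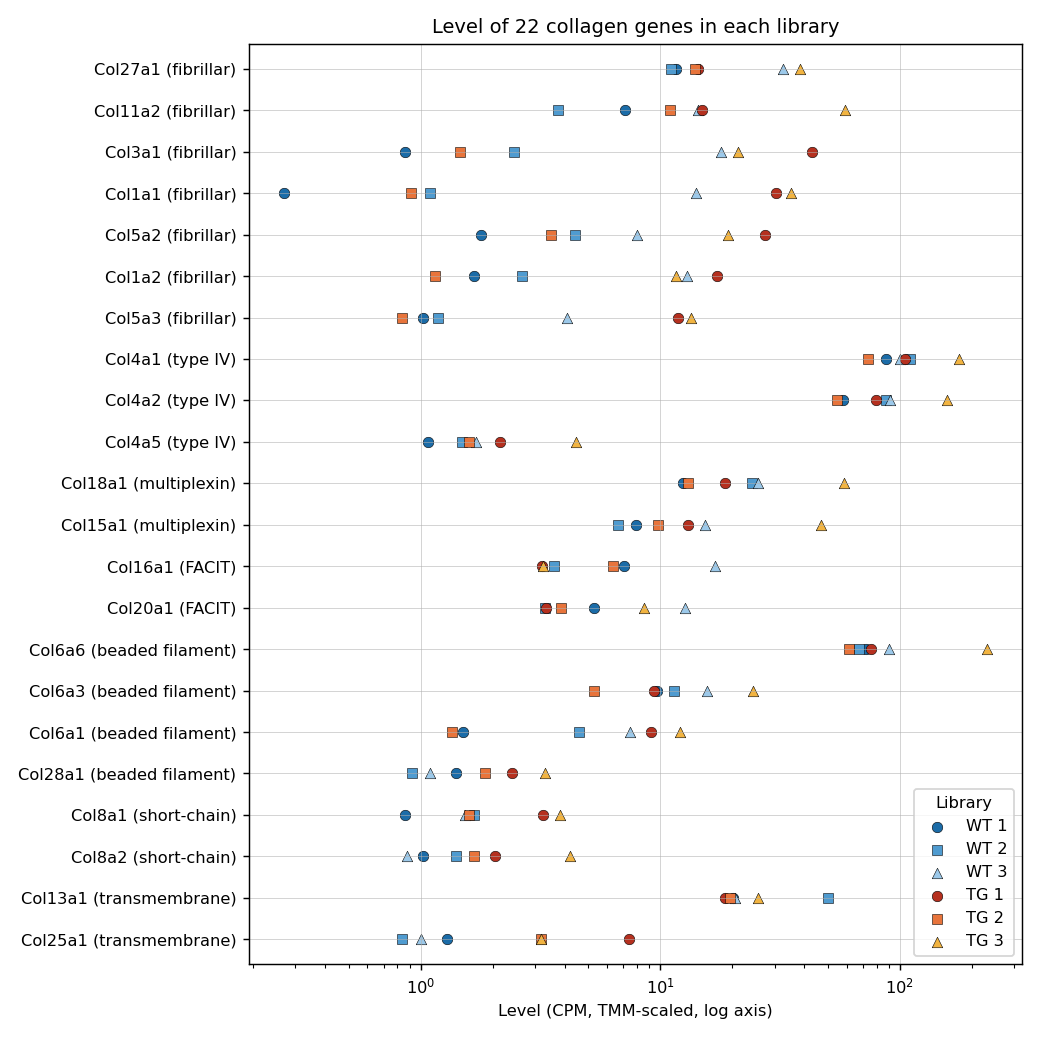
Level of the 22 collagen genes with a mean of at least 5 CPM or an unadjusted p under 0.05, in CPM on a log axis, with 1 point for each WT library (blue) and TG library (red to yellow). For Col1a1, Col3a1, Col5a2 and Col5a3 the TG 2 point lies with WT 1 and WT 2, while the points of Col4a1 and Col4a2 lie close together.

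Col11a2 and Col27a1, minor fibrillar collagens best known from cartilage, were higher in every TG library than in the WT libraries sequenced in its table. Col11a2 (chr17:34039437-34066685, plus strand) was at 7.12, 3.74 and 14.4 CPM across WT 1 to WT 3, against 15.0, 10.98 and 58.8 CPM across TG 1 to TG 3. TG 3 was far above the rest, and TG 2 exceeded WT 1 and WT 2 but not WT 3. The means ± SD (n = 3) were 8.43 ± 5.46 CPM for WT and 28.3 ± 26.5 CPM for TG. For Col11a2 the log2 fold change was 1.53 (SE 0.30), with an adjusted p in edgeR of 0.199, which is the smallest of all genes and shared by several. DESeq2 gave an adjusted p of 0.000351, and edgeR without TG 2 gave 0.0110. The alternatives gave Col11a2 adjusted p between 3.08e-09 (no low-count filter) and 0.924 (without WT 3). Col27a1 was at 11.6, 11.1 and 32.7 CPM across WT 1 to WT 3, against 14.4, 14.0 and 38.4 CPM across TG 1 to TG 3. Both genotypes were high in the second table, and the log2 fold change was 0.29 (SE 0.13), with an edgeR adjusted p of 0.383.

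The 250 bases before the RefSeq start of Col11a2 are shown because this gene had the smallest unadjusted p among the collagens. Capitals mark 3 motifs searched on both strands. The first is the TATA box, spelled TATAAA. The second is the GC box, spelled GGGCGG, which reads CCGCCC where it lies on the other strand. The last is the CCAAT box, named by its letters. The window is chr17:34038888-34039137 of GRCm38.p6 on the plus strand, upstream of the gene as deposited.
Col11a2 promoter: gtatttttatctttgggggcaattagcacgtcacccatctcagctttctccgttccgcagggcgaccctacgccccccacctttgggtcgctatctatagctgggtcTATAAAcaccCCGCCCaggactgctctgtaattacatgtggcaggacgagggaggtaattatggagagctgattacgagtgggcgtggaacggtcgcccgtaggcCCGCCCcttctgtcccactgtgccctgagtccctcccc
It held 1 TATA box and 2 GC box matches and no match to the CCAAT box.

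Relative to the mean of the WT libraries of the same table, the 8 fibrillar genes had a median log2 difference of 3.24 in TG 1, 0.15 in TG 2 and 1.28 in TG 3. Of the 8 genes, 7 were more than 2-fold above that WT level in TG 1, 1 in TG 2 and 5 in TG 3. Among all 32 tested collagens these counts were 13, 2 and 14, where 9.36%, 2.43% and 12.2% of all tested genes were so in TG 1, TG 2 and TG 3. TG 3 was the highest of the 6 libraries for 19 of the 32 genes (background 21.8%), TG 1 for 7 (background 17.0%) and TG 2 for 0 (background 16.7%). TG 2 was the lowest for 8 of them (background 17.3%) and WT 1 for 11 (background 13.4%). Over all 32 genes the median log2 difference from the WT libraries of the same table was 0.73 in TG 1, -0.15 in TG 2 and 0.80 in TG 3. Beta-cell markers summed to 30992 CPM in TG 1, 168276 in TG 2 and 35361 in TG 3, against 183481, 194509 and 95509 CPM across WT 1 to WT 3. The part of the beta-cell share in the collagen values was not tested.

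**Figure D4:**
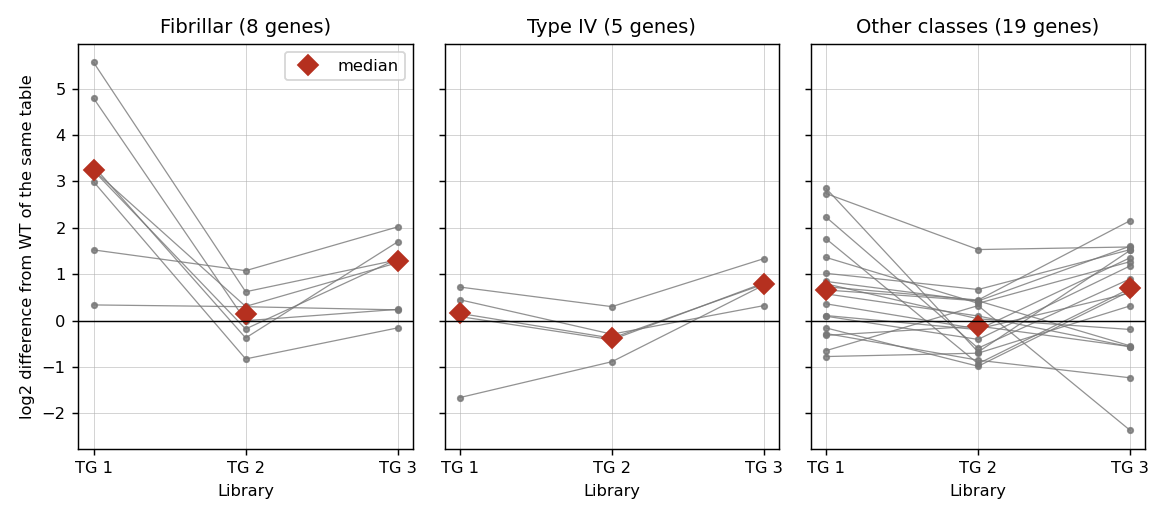
Log2 difference of each TG library from the WT libraries of its own table, for 8 fibrillar, 5 type IV and 19 other tested collagen genes (gray lines, 1 for each gene; red diamonds, median). The fibrillar medians are 3.24, 0.15 and 1.28 in TG 1, TG 2 and TG 3, and those of type IV are 0.16, -0.38 and 0.79.

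The main type IV genes differed between the genotypes by less than the standard error. Col4a1 (chr8:11198423-11312826, minus strand) and Col4a2 (chr8:11312805-11449287, plus strand) encode the chains found in nearly all basement membranes. Col4a1 was at 87.6, 111 and 100.3 CPM across WT 1 to WT 3, against 105, 74.0 and 176 CPM across TG 1 to TG 3. Col4a2 was at 57.7, 87.6 and 91.2 CPM across WT 1 to WT 3, against 79.3, 54.7 and 157 CPM across TG 1 to TG 3. For both, TG 3 was the highest library and TG 2 the lowest, with the WT libraries and TG 1 between them. The log2 fold changes were 0.17 (SE 0.25) and 0.18 (SE 0.27), with edgeR adjusted p of 0.795 and 0.792, and both were below 0 in the first table alone, at -0.15 and -0.12. The 5 tested type IV genes had a median log2 fold change of 0.18, with 4 higher and 1 lower, and -0.12 in the first table alone.

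These genes lie head to head, and in the deposited annotation they overlap by 22 bases at their starts. The shared stretch, chr8:11312805-11312826 of GRCm38, is shown because both transcripts start at its ends; it reads on the plus strand, with a GGGCGG match in capitals.
Col4a1 and Col4a2 shared start: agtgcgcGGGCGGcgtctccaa
The ratio of Col4a1 to Col4a2 counts per length lay between 0.978 and 1.35 in WT and between 0.995 and 1.20 in TG. It was the narrowest of the 4 chain ratios planned, with a range of 0.46 on the log2 scale over the 6 libraries. The ratio of Col6a1 to Col6a2, whose start sites lie 102538 bases apart, was nearly as narrow, with a range of 0.54. A narrow ratio was thus not particular to the head-to-head pair. The widest was Col1a1 to Col1a2 at 4.23, where WT 1 had 5 counts of Col1a1. The counting is not known to use strand, so reads over these 22 bases cannot be assigned to either gene.

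**Figure D5:**
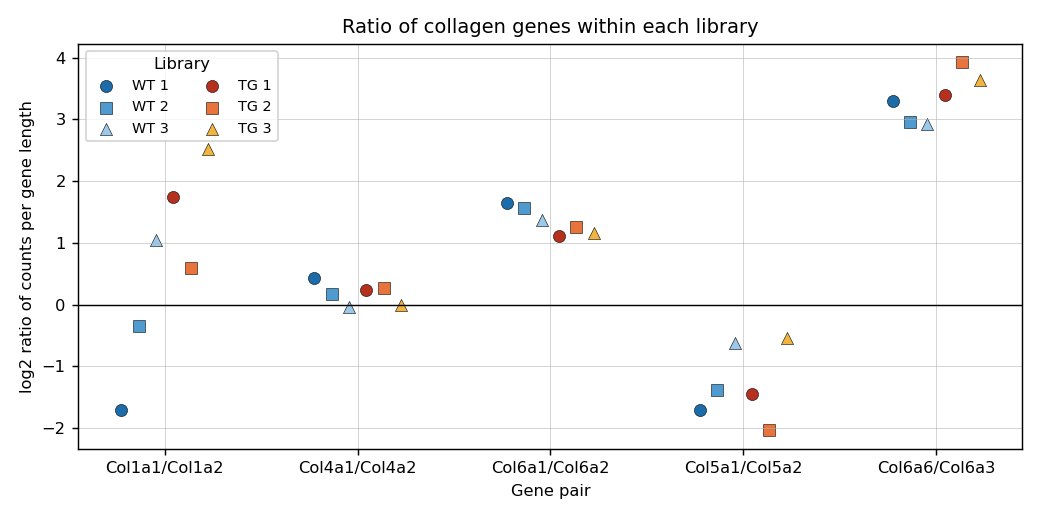
Log2 ratio of counts per gene length for 5 collagen pairs, with 1 point for each WT library (blue) and TG library (red to yellow). Col4a1/Col4a2 stays near 0 in all 6 libraries, and Col1a1/Col1a2 spans 4.23.

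Col4a5, a chain of the type IV network of the kidney filter, was the 1 type IV gene with an unadjusted p under 0.05. It was at 1.08, 1.49 and 1.71 CPM across WT 1 to WT 3, against 2.15, 1.59 and 4.44 CPM across TG 1 to TG 3. Each TG library was above the WT libraries in its table, although TG 2 was below WT 3. Fitted over all libraries, the log2 fold change was 0.83 (SE 0.33), with an edgeR adjusted p of 0.340, and Col4a5 was at 0.54 in the first table alone. The sparse kidney-type chains Col4a3 and Col4a4 differed by a log2 fold change of -0.64 (SE 0.65) and 0.21 (SE 0.37), and their levels were at most 1.25 CPM in any library. Col4a6 was too low to be tested.

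Of the other basement membrane collagens, Col15a1 but not Col18a1 was higher in every TG library than in WT libraries from its table. Both are multiplexins, collagens with many short helical stretches that carry glycan chains and sit where basement membrane meets connective tissue. Col15a1 (chr4:47208161-47313167) was at 7.92, 6.64 and 15.3 CPM across WT 1 to WT 3, against 13.1, 9.75 and 46.9 CPM across TG 1 to TG 3. TG 3 was more than 2-fold above any other library, and TG 2 was above WT 1 and WT 2 only. The means ± SD (n = 3) were 9.97 ± 4.70 CPM for WT and 23.2 ± 20.5 CPM for TG. Its log2 fold change was 0.98 (SE 0.26), with an adjusted p of 0.222 in edgeR, 0.0179 in DESeq2 and 0.0158 in edgeR without TG 2, and a range over all alternatives from 0.000996 to 0.942. In the first table alone the value of Col15a1 was 0.65. Col18a1, the source of the fragment endostatin, was at 12.5, 24.2 and 25.7 CPM across WT 1 to WT 3, against 18.6, 13.1 and 58.4 CPM across TG 1 to TG 3. TG 3 was the highest library and WT 1 the lowest, and the log2 fold change of 0.25 (SE 0.37) was -0.21 in the first table alone. Col18a1 overlaps the opposite-strand gene Slc19a1 by 8825 bases, so its counts are uncertain. For Col7a1, the anchoring fibril collagen of skin, the log2 fold change was 0.22 (SE 0.36).

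The 250 bases before the RefSeq start of Col15a1, chr4:47207762-47208011 of GRCm38.p6 on the plus strand, are shown for contrast with Col11a2.
Col15a1 promoter: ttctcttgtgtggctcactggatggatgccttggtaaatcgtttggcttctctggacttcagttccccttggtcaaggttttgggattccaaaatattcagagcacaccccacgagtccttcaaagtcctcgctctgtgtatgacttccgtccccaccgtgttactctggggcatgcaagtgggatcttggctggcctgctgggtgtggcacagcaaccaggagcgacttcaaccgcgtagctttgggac
None of the 3 motifs occurred in these letters.

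Among the beaded filament collagens, which form thin filaments around cells, Col6a6 was the most abundant per length. Col6a6 (chr9:105687809-105828160) was at 72.5, 67.6 and 90.5 CPM across WT 1 to WT 3, against 75.6, 61.2 and 232 CPM across TG 1 to TG 3. TG 3 was more than 2-fold above every other library, whereas TG 1 and TG 2 lay near the WT libraries of their table. This gave a log2 fold change of 0.42 (SE 0.29), with an edgeR adjusted p of 0.545, and it was -0.03 in the first table alone. The interaction of table and genotype had an unadjusted p of 0.00549 for Col6a6 in edgeR, with an adjusted p of 1.0. Col6a6 and Col16a1, with an unadjusted p of 0.0398, were the collagens with such a p under 0.05, where the background was 2.28% of all genes.

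Col6a1 and Col6a3 encode common chains of type VI collagen. Col6a1 was at 1.51, 4.57 and 7.48 CPM across WT 1 to WT 3, against 9.17, 1.35 and 12.1 CPM across TG 1 to TG 3, with a log2 fold change of 0.75 (SE 0.69) that turned to -0.26 without TG 1. Col6a3 was at 9.65, 11.4 and 15.6 CPM across WT 1 to WT 3, against 9.41, 5.27 and 24.4 CPM across TG 1 to TG 3, with a log2 fold change of -0.13 (SE 0.33) that turned to 0.19 without TG 2. Both were lowest in TG 2 and highest in TG 3. For Col6a2 the log2 fold change was 1.12 (SE 0.73). The ratio of Col6a1 to Col6a2 counts per length was 3.13, 2.95 and 2.58 across WT 1 to WT 3, against 2.15, 2.39 and 2.23 across TG 1 to TG 3, so every TG library was below every WT library. The ratio of Col6a6 to Col6a3, looked at after their values were seen, was 7.57 to 9.81 in WT and 10.5 to 15.2 in TG, again without overlap. These ratios have no test.

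Col28a1, a filament collagen known around peripheral nerves, was at 1.40, 0.923 and 1.09 CPM across WT 1 to WT 3, against 2.40, 1.86 and 3.32 CPM across TG 1 to TG 3. All 3 TG libraries were above all 3 WT libraries, as for Col8a2 and Col25a1 among the 32 tested collagens (background 6.96%). For Col28a1 the log2 fold change was 1.12 (SE 0.34), with an edgeR adjusted p of 0.246. Schwann cell markers summed to 23.6, 30.4 and 36.9 CPM across WT 1 to WT 3, against 41.1, 29.7 and 47.4 CPM across TG 1 to TG 3, and their part in the Col28a1 values was not tested.

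The short-chain collagens Col8a1 and Col8a2 form the hexagonal network of vessel walls and the cornea. Col8a1 was at 0.863, 1.67 and 1.53 CPM across WT 1 to WT 3, against 3.23, 1.59 and 3.81 CPM across TG 1 to TG 3, with TG 2 below WT 2. Col8a2 was at 1.02, 1.41 and 0.874 CPM across WT 1 to WT 3, against 2.05, 1.66 and 4.19 CPM across TG 1 to TG 3, without overlap. Their log2 fold changes were 1.05 (SE 0.41) and 1.15 (SE 0.43), with edgeR adjusted p of 0.318 and 0.304, and Col8a2 was at 0.61 in the first table alone. Col10a1, the cartilage member of the class, was too low to be tested.

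The transmembrane collagens are anchored in the cell membrane and shed their outer part. Col25a1 (chr3:130131501-130599877), known as a component of amyloid plaques in the brain and for its part in the innervation of muscle, was at 1.29, 0.835 and 1.01 CPM across WT 1 to WT 3, against 7.43, 3.17 and 3.19 CPM across TG 1 to TG 3. Every TG library was above every WT library, TG 2 included, and TG 1 was the highest. The means ± SD (n = 3) were 1.04 ± 0.232 CPM for WT and 4.60 ± 2.45 CPM for TG. The log2 fold change was 2.10 (SE 0.43), with an adjusted p of 0.199 in edgeR, 0.00129 in DESeq2 and 0.0100 in edgeR without TG 2. The alternatives gave Col25a1 adjusted p between 1.26e-06 (no low-count filter) and 0.924 (without WT 3). Its log2 fold change was 2.22 without WT 1 and 2.32 in the first table alone. Col13a1, a collagen of the junction between nerve and muscle, was at 20.2, 50.1 and 20.6 CPM across WT 1 to WT 3, against 18.6, 19.5 and 25.7 CPM across TG 1 to TG 3. WT 2 alone stood above the rest, and the log2 fold change of -0.49 (SE 0.39) was 0.09 without WT 2.

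The window before the RefSeq start of Col25a1, chr3:130180595-130180844 of GRCm38.p6 on the plus strand, is shown because Col25a1 had the largest log2 fold change among the collagens whose genotypes did not overlap. This start lies 49344 bases inside the gene as deposited, so it is one of several possible starts, and which one these islets used was not measured.
Col25a1 promoter: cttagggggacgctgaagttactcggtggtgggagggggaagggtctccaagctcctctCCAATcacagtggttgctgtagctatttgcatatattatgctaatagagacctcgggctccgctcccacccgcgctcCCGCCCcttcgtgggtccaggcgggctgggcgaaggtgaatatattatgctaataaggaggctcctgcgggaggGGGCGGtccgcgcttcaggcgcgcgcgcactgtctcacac
It held 1 CCAAT box and 2 GC box matches, 1 of the latter on each strand, and no TATA box match. Of 38 collagen windows of this kind, from 35 genes, 57.9% held the GC box, against 32.7% of 32851 windows over all genes. For the TATA box the shares were 13.2% and 12.4%, and for the CCAAT box 34.2% and 33.9%. A match is a description of the letters and not a measured site.

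The fibril-associated collagens (FACIT), which sit on the surface of fibrils, had no common direction, with 3 of 6 tested genes higher and 3 lower and a median log2 fold change of -0.17. Col16a1 was at 7.06, 3.60 and 17.0 CPM across WT 1 to WT 3, against 3.20, 6.34 and 3.23 CPM across TG 1 to TG 3. WT 3 was the highest and TG 1 the lowest library, TG 2 lay between WT 1 and WT 2, and the log2 fold change was -0.88 (SE 0.57). For Col16a1 it was -0.16 in the first table alone, as in the fits without WT 3 or TG 3, which rest on that table. Its value was -1.38 without WT 2 and -1.44 without TG 2. Col20a1 was at 5.28, 3.30 and 12.6 CPM across WT 1 to WT 3, against 3.33, 3.85 and 8.54 CPM across TG 1 to TG 3, with a log2 fold change of -0.36 (SE 0.26) that was -0.18 without WT 1 and -0.56 without WT 2. It overlaps a non-coding gene on the same strand, 9230112E08Rik, by 741 bases, and its counts are uncertain. Col9a3, a type IX chain of cartilage fibrils, was the only tested collagen with all TG libraries below all WT libraries (background 6.42%), at 1.13, 1.01 and 1.57 CPM across WT 1 to WT 3, against 0.868, 0.555 and 0.622 CPM across TG 1 to TG 3. Its log2 fold change was -0.83 (SE 0.37), with an unadjusted p of 0.0586 and an edgeR adjusted p of 0.368, and it overlaps the opposite-strand gene Tcfl5 by 234 bases. For its partner chain Col9a2 the log2 fold change was 0.25 (SE 0.30). Col12a1 and Col14a1, which bind type I fibrils, differed by 1.70 (SE 0.93) and 0.03 (SE 0.33) on this scale. Col26a1, a collagen of testis and ovary outside these classes, did so by 0.16 (SE 0.37).

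Of the 44 genes, 12 did not pass the filter on low counts, with 6 to 83 counts summed over the 6 libraries and at most 1.79 CPM in any library. They were Col2a1, Col11a1 and Col24a1 of the fibrillar class, Col4a6, the FACIT genes Col9a1, Col19a1 and Col22a1, Col6a4 and Col6a5, Col10a1, and the transmembrane genes Col17a1 and Col23a1. All 44 had a count somewhere, and 4 had 0 counts in some library, which allows up to 3 counts there, for counting error only. The main test gives no genotype difference for the genes that failed the filter. In edgeR without the filter, the smallest adjusted p among them was 0.148, for Col23a1, with a log2 fold change of 1.98.

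Each TG library exceeded the WT libraries in its table for 7 of the 32 tested collagens (background 13.0%), namely Col11a2, Col27a1, Col4a5, Col15a1, Col28a1, Col8a2 and Col25a1. None of the 6 genes of types I, III and V was among them. The reverse held for 1, Col9a3 (background 13.4%). Of the 4 largest fitted fold changes, those of Col1a1, Col3a1, Col5a3 and Col25a1, only that of Col25a1 came with libraries that parted by genotype.

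Most transcripts for the proteins that make, process and hold collagens had a higher fitted level in TG too, and edgeR called 0 of them. Over all tested genes 48.1% were higher, and at an unadjusted p under 0.05 9.32% were higher and 4.81% lower, the background of the counts below. Of 18 tested genes for collagen synthesis enzymes and chaperones 12 were higher, 5 of them at an unadjusted p under 0.05 and 0 lower at such a p, with a median log2 fold change of 0.25. P3h4, a subunit of the lysine hydroxylation complex, was at 37.8, 36.8 and 46.7 CPM across WT 1 to WT 3, against 57.1, 50.1 and 71.5 CPM across TG 1 to TG 3, without overlap and with a log2 fold change of 0.55 (SE 0.12). P3h3, its prolyl hydroxylase family partner, had 0.79 (SE 0.22), and the abundant P4hb, a subunit of prolyl 4-hydroxylase, had -0.08 (SE 0.21). The other genes of this list at such a p, named here after their values were seen, were the lysyl hydroxylase Plod2 at 2.09 (SE 0.59), the galactosyltransferase Colgalt2 at 1.37 (SE 0.46) and the collagen chaperone Serpinh1 at 0.70 (SE 0.28). The adjusted p of P3h4, P3h3 and Plod2 were 0.199, 0.238 and 0.238 in edgeR and 0.00981, 0.0391 and 0.00747 in DESeq2, which called 0 others of the list (background 3.83% higher). The alternatives ranged from 0.00981 to 0.924 for P3h4, from 0.0140 to 0.944 for P3h3 and from 3.99e-10 to 0.924 for Plod2.

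Of 9 tested genes for propeptide cleavage and cross-linking 8 were higher, 2 of them at an unadjusted p under 0.05, with a median of 0.73. They were Adamts2, which trims the amino end of procollagen, at 1.65 (SE 0.50), and the cross-linking enzyme Loxl1 at 1.31 (SE 0.53), and without TG 1 these were 1.05 and 0.57. The most abundant gene of the list, Sparc, a collagen-binding matrix protein, was at 0.53 (SE 0.32), and at 0.26 in the first table alone. Of the fibril-binding proteoglycans and glycoproteins all 6 tested genes were higher, with a median of 1.75 and 3 at such a p. Decorin (Dcn), which binds and spaces fibrils, was at 2.32, 5.01 and 3.85 CPM across WT 1 to WT 3, against 25.9, 6.26 and 12.0 CPM across TG 1 to TG 3, with a log2 fold change of 1.96 (SE 0.56). Periostin (Postn), which helps to cross-link fibrils, was at 1.56, 1.98 and 1.92 CPM across WT 1 to WT 3, against 11.1, 3.33 and 6.18 CPM across TG 1 to TG 3, with 1.91 (SE 0.47). For these 2 of the 6 genes, every TG library was above every WT library (background 6.96% of all tested genes). Their edgeR adjusted p were 0.238 and 0.216, and those of DESeq2 0.00784 and 0.00491 (background 3.83% called as higher). The alternatives ranged from 3.07e-10 to 0.924 for Dcn and from 9.17e-07 to 0.924 for Postn. Without TG 1 the log2 fold change was 1.15 for Dcn and 1.25 for Postn. Biglycan (Bgn), the gene of this list with the highest mean CPM, was at 4.31, 9.32 and 8.61 CPM across WT 1 to WT 3, against 37.2, 3.81 and 26.7 CPM across TG 1 to TG 3, with 1.60 (SE 0.74). TG 2 had the lowest Bgn level of the 6 libraries, and without TG 1 the value was 0.32. The third gene of this list at such a p, lumican (Lum), named here after its values were seen, had 1.92 (SE 0.71).

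All 11 basement membrane partners of type IV were higher, with a median of 0.32 and 0 at an unadjusted p under 0.05. Among them were the linker nidogen 2 (Nid2) at 0.44 (SE 0.20) and the laminin chains Lamb1 at 0.41 (SE 0.21) and Lamc1 at 0.20 (SE 0.20). Of 8 tested collagen receptors 7 were higher, with a median of 0.41, and Itgb1, the shared integrin chain, was the 1 at such a p, with 0.47 (SE 0.17). Itga2, a chain of a collagen-binding integrin, had 0.81 (SE 0.35), which was 0.43 in the first table alone. Of 8 tested genes for collagen breakdown 7 were higher, with a median of 1.01 and 2 at such a p, the proteases Mmp2 at 2.65 (SE 1.0) and Ctsk at 1.27 (SE 0.43). Mmp2 was at 0.216, 0.571 and 1.27 CPM across WT 1 to WT 3, against 7.43, 0.436 and 3.94 CPM across TG 1 to TG 3. TG 1 and TG 3 were above all WT libraries of Mmp2 and TG 2 was not. Without TG 1, Mmp2 was at 0.94 and Ctsk at 0.75 on the log2 scale.

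Because the transgene encodes miR-203, the collagen 3′ untranslated regions were searched for the match to its seed, the bases with which a microRNA pairs to its targets. The mature strand, from RefSeq on GRCm38.p6 at chr12:112130927-112130948 on the plus strand, is shown with its seed, bases 2 to 8, in capitals. The 30-base stretches below come from the longest coding transcript of each gene in GENCODE M21, 5′ to 3′ on the transcript strand as DNA, with CATTTCA, the complement of the seed, in capitals, and they are the matches in collagens whose level in every library is given above.
miR-203-3p: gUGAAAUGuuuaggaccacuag
Col4a1 first site: atcctggcaggCATTTCAcacctgagcaca
Col4a1 second site: gcttgaagtgaCATTTCActaaaagtaccc
Col5a2 site: tttcatcaattCATTTCActgtaatgaata
Col6a1 site: gcatggagacaCATTTCAacaggccttccc
Col8a1 site: aacaactttgcCATTTCAtgaacatttatt
The stretches lie at chr8:11198751-11198780 and chr8:11198633-11198662 for Col4a1, chr1:45375770-45375799 for Col5a2, chr10:76709500-76709529 for Col6a1 and chr16:57626000-57626029 for Col8a1, all on the minus strand.

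Of 30 tested collagen genes with an annotated 3′ untranslated region 7 held CATTTCA, or 23.3%, against 15.5% of 13680 tested genes. The others with a match were Col4a3, Col4a4 and Col14a1. The match extended to CATTTCAA in 3 of the 30, or 10%, against 4.50% of all, and of the stretches shown only that of Col6a1 does so. The 7 genes with a match had a median log2 fold change of 0.21, with 6 higher in TG, and the 23 without one a median of 0.83, with 18 higher. Both ranges, from -0.64 to 1.95 with a match and from -0.88 to 3.23 without, overlapped widely, and no test was made. The labels place the transgene in beta cells, and in which cells these collagen transcripts lay was not measured. A match in the letters is no measured target.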

How the data were processed

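RNA was sequenced from islets of 3 WT and 3 TG libraries, each made from 3 µg of RNA. The submitters' processing notes list CASAVA 1.8, HISAT2 and GRCm38 (mm10). Which read counter, strand setting and gene annotation release were used is not given in the sources used here. The authors deposited raw counts per gene in 2 tables, and FPKM values scaled by the authors within each table, whose annotation gave gene names, positions and lengths. The FPKM served only to check the files: per library, 100% of genes with at least 20 counts had an FPKM within 5% of a fixed multiple of the count per length. All results were computed from the deposited raw counts of 47643 genes, joined on gene ID.

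The main test was edgeR's quasi-likelihood F-test (edgeR 4.0.16, R 4.3.3, with filterByExpr, TMM and no robust estimation), with table and genotype as terms and Benjamini-Hochberg adjustment over all 16072 tested genes. SE stands for the size of the log2 fold change over the square root of F. The script was tested on simulated data. Since the second table has 1 library of either genotype, the interaction test assumes that these libraries vary like the others. For the same reason, fits with the table term that leave out WT 3 or TG 3 take the genotype difference from the first table. They nearly repeat the fit of the first table alone. Sums over a class are described without a p-value, since an exact permutation test of 3 against 3 libraries cannot reach a p below 0.1. The alternatives were DESeq2 1.42.0, limma-voom (limma 3.58.1), other size factors, no filter, no filter with the bias-adjusted form of edgeR's test, no table term, the first table alone and each library left out. Collagens were named in full at a mean of at least 5 CPM or an unadjusted p under 0.05, and of each partner list the 2 genes with the smallest p and the one with the highest mean CPM. The members, classes and lists were chosen with earlier results of these data known. Sequences came from RefSeq tables on GRCm38.p6 and from GENCODE M21 transcripts.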

Additional observations from a re-analysis of the deposited data

How the results depend on the processing

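No setting changed the direction of the collagen or the fibrillar median log2 fold change (0.12 to 0.85 and 0.59 to 2.33 over the alternatives). The type IV median of 0.18 was -0.12 in the first table alone, without WT 3 and without TG 3, fits that all rest on the first table. The log2 difference of the summed collagen level was -0.04 without TG 3 and above 0 under every other alternative. Genes called for genotype numbered 0 in edgeR, but 1672 without the low-count filter (0 in the bias-adjusted form without it), 752 in DESeq2 and, with each library left out, 0 to 2189, the highest without TG 2. The interaction had 0 calls, but 137 without the filter and 5 in DESeq2. The 10 collagens at an unadjusted p under 0.05 became 19 without the filter (12 in the bias-adjusted form), 6 without the table term, 4 in the first table alone and 4 to 18 with each library left out. Over all 16072 genes, 1498 were higher at such a p and 773 lower. Without the filter these were 2442 and 1148 of 29725 (2035 and 971 in the bias-adjusted form), which include genes that failed it. They were 1073 and 361 without the table term, and 688 and 182 of 16312 in the first table alone. With each library left out, the higher ran from 690 of 16461 without TG 3 to 2823 of 16560 without TG 2. The lower ran from 167 of 16688 without WT 3 to 2205 of 16560 without TG 2. The cause was not tested. Of 507 pairs of a named gene and an alternative, 42 gained a call and 24 changed sign, 17 of these without a library. Of the sign changes, 5 each came in the first table alone, without WT 3 and without TG 3. These fits rest on the same libraries, and the genes were the same. In the first table alone, Col18a1 was at -0.21, Col4a1 at -0.15, Col4a2 at -0.12, Col6a6 at -0.033 and P4hb at 0.11, and without the table term Col6a3 was at 0.089 and Pepd, a dipeptidase, at 0.0013. With each library left out, Col13a1 ran from -0.89 to 0.090, Col18a1 from -0.22 to 0.70, Col1a2 from -0.53 to 2.10, Col4a1 from -0.16 to 0.39, Col4a2 from -0.12 to 0.46, Col6a1 from -0.26 to 1.27, Col6a3 from -0.53 to 0.19, Col6a6 from -0.039 to 0.66, P4hb from -0.25 to 0.11 and Pepd from -0.064 to 0.061. Low counts limited the 12 collagens not tested. No paired analysis was possible because the labels give the WT and TG libraries no shared replicate numbers.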
